A study of Homo sapiens with 6 samples.

Results

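Histone genes were followed in 6 RNA-seq libraries of cells labelled MDA-MB231, a triple-negative breast cancer line. The genes are those whose symbols begin with HIST1H, HIST2H, HIST3H or HIST4H. The count tables list 73 such symbols, and 70 remained after 3 pseudogenes were dropped, out of 24462 distinct symbols in all. They divide into 6 genes of linker histone H1, 17 of H2A, 18 of H2B, 14 of H3 and 15 of H4. By cluster, 55 belong to HIST1 on chromosome 6, 11 to HIST2, 3 to HIST3 and 1 to HIST4.

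The study asked how expression differs between control cells, cells with a knockdown of the ETS transcription factor ELK3, and knockdown cells given ELK3 back. Controls were MDA-MB231 cells infected with a control retrovirus. The knockdown line carried a retroviral shRNA against ELK3, and its cells received 1 µg of plasmid with Lipofectamine 2000, either the empty pLenti-cMyc-DDK or the same vector with the ELK3 insert (pLenti-cMyc-DDK-ELK3), with collection 48 hours later. Each group had 2 libraries. For the controls no plasmid transfection is recorded, so knockdown and transfection cannot be told apart in contrasts with them. The labels do not say whether replicates were separate cultures, so the p-values measure only the spread between these libraries, which may be technical.

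Histones are the proteins around which DNA is wrapped: pairs of H2A, H2B, H3 and H4 form the nucleosome core, and H1 binds the linker DNA beside it. Most genes of these clusters are transcribed in S phase, when new DNA needs packaging, and their messenger RNAs end in a conserved stem-loop bound by SLBP in place of a poly(A) tail. A number of the same genes can also give polyadenylated messenger RNA from a signal further downstream, mainly in cells that leave the cycle or differentiate. The libraries were made from total RNA with a Lexogen Quant-Seq kit, per the labels, a kit family that reads the 3′ ends of transcripts. A count here therefore cannot be read as the amount of all histone messenger RNA, and which ends the reads came from was not tested.

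The totals of the libraries ran from 4884483 to 9131214 counts, and a count of 3, the limit that 0 counts allow, stood for 0.329 to 0.614 counts per 1000000 (CPM). CPM values below are scaled by edgeR's TMM factors. The targeted gene went against the labels. ELK3 stood at 128.6 and 123.9 CPM in the controls, at 758.9 and 697.2 in the libraries labelled as knockdown with empty vector, and at 20.35 and 22.65 in those labelled as knockdown with ELK3. The groups are therefore called vector-labelled and ELK3-labelled, and every direction follows the labels as deposited. Of 8 marker genes of MDA-MB231 cells, 8 were lower than in the controls in either plasmid group, and their summed level was 4679 to 4895 CPM in the controls, 765.4 to 785.6 in the vector-labelled and 691.4 to 739.4 in the ELK3-labelled libraries, with no marker at 0. Of 6 tested marker genes of the embryonic kidney line HEK293, 5 were higher in either plasmid group, with summed levels of 19.24 to 22.79, 151.7 to 158.1 and 303.1 to 303.6 CPM. From vector-labelled to ELK3-labelled libraries 1 of the 6 was higher, 1 lower and 4 not called, with a median log2 fold change of -0.21. The higher ELK3-labelled sum was therefore not a rise of the list as a whole. Markers of other tissues had counts in every library, with their lowest sums in the ELK3-labelled ones. The 7 liver markers summed to 8512 to 8772 CPM in the controls, 8476 to 9141 in the vector-labelled and 6888 to 7272 in the ELK3-labelled libraries, and 7 of 7 were called lower there against either other group, with a median log2 fold change of -0.32 between the plasmid groups. The 10 lymphocyte markers summed to 178.8 to 188.2, 179.7 to 196.8 and 134.8 to 148.2 CPM, and 4 of 9 tested were called lower against either group. The 4 luminal breast markers summed to 43.5 to 46.02, 45.24 to 55.23 and 28.3 to 28.71 CPM. Between the plasmid groups 4 of 4 were called lower, and against the controls 1 of 4 was lower in the ELK3-labelled libraries. Of all 15386 genes tested, 37.0% were higher and 35.3% lower in vector-labelled libraries than in controls. Between the plasmid groups 30.0% were higher and 29.6% lower, and between ELK3-labelled libraries and controls 31.8% and 30.8%. None of these markers was at 0 in all libraries. The part of these markers in the histone results was not tested.

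The sequence that defines the mature end of a replication-type histone messenger RNA was searched in the GENCODE 29 transcripts (GRCh38) as GG, any 2 bases, CTTTT, any base, AG, any 2 bases and CC, on the transcript's own strand. It was found after the stop codon of 31 of the 70 genes, in 5 spellings. They are shown because the ending decides whether a poly(A)-dependent method can read the messenger RNA. The capitals mark the loop of 4 bases between the arms of the stem.
Most common form, 17 genes of H2A, H2B and H3: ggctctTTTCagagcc
Form with A in the loop, 5 genes of H2B and H3: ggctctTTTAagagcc
H4 form, 5 genes: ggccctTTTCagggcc
H4 form with T in the loop, 3 genes: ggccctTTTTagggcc
Mixed stem, 1 gene of H2A: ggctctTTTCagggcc
The 8 H4 genes with a match used the 2 spellings that no other class had. For 34 of the 70 genes the annotated model stops at the stop codon, which leaves no end to search. For 25 genes at least 1 annotated transcript ran 100 bases or more past the stem-loop or, where none was found, past the stop codon, as a polyadenylated form would. Among them are HIST1H2BD, HIST2H2BE, HIST1H2BG, HIST1H2BC and HIST1H4H. Length alone set this group. The poly(A) signal AATAAA was absent after the stop codon of HIST1H2BG and present in a transcript of each of the other genes just named. It was also present past the stem-loop of HIST2H2AA3 and HIST2H2AA4, whose ends are short.

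Few of these genes were well covered. HIST1H4C gave 53.9% to 76.9% of all histone counts, and the 5 genes with most counts together gave 86.0% to 94.8%. No count was seen in any library for HIST1H2AA and HIST1H4G, and 17 genes had fewer than 10 counts over all libraries. The filter on low counts passed 30 of the 70 genes: 4 of H1, 10 of H2A, 8 of H2B, 2 of H3 and 6 of H4. Of these, 6 passed only because the vector-labelled libraries were included: HIST1H1B, HIST1H2BF, HIST1H2BG, HIST1H2BN, HIST1H3D and HIST1H4B. HIST1H3C and HIST2H4A passed only because the controls were included. Counts of changed genes over the 30 are therefore descriptions and not evidence about all 70.

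Most of the histone total came from HIST1H4C. Summed over all 70 genes, the level was 3665 ± 151.5 CPM in the controls (mean ± SD, n = 2 here and below), 3704 ± 0.328 in the vector-labelled and 2579 ± 105.3 in the ELK3-labelled libraries. Without HIST1H4C the other 69 genes summed to 1222 ± 93.8, 1698 ± 14.7 and 616.6 ± 4.23 CPM in the same order. By summed CPM, the vector-labelled libraries held more H2A, H2B and H3 than the other groups. The ELK3-labelled libraries had the lowest mean of every class, though for H4 they overlapped the vector-labelled ones. For H1 this order rested on HIST1H1C. In bulk samples, fewer cells with a transcript and less of it per cell cannot be told apart.

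H1 summed to 599.7 ± 68.1 CPM in the controls, 489.5 ± 6.83 in the vector-labelled and 381.1 ± 7.31 in the ELK3-labelled libraries. Most of this was HIST1H1C. The other 5 H1 genes summed to 52.2 ± 12.0, 27.2 ± 1.71 and 32.2 ± 1.04 CPM, lowest in the vector-labelled libraries. H2A summed to 196.7 ± 16.4, 664.9 ± 19.8 and 115.1 ± 3.54 CPM, so the vector-labelled libraries held 3.38 times the control level and the ELK3-labelled ones 0.173 times the vector-labelled level. Most of that rise lay in the copies HIST2H2AA3 and HIST2H2AA4. The other 15 H2A genes summed to 106.9 ± 9.14, 129.1 ± 4.34 and 50.8 ± 2.64 CPM, with ratios of 1.21 and 0.393. H2B summed to 397.8 ± 7.90, 479.2 ± 30.3 and 103.1 ± 6.06 CPM. For the full sums of these classes no library of one group overlapped another group. Most of the H2B level in the controls was HIST1H2BK. The other 17 H2B genes summed to 64.1 ± 0.0852, 284.3 ± 17.8 and 35.2 ± 2.78 CPM, with ratios of 4.43 and 0.124. H3 was low in all groups, at 9.44 ± 0.336, 36.0 ± 0.266 and 3.61 ± 0.158 CPM. H4 summed to 2461 ± 59.4, 2034 ± 16.7 and 1977 ± 110.3 CPM, and its 2 plasmid groups overlapped. Without HIST1H4C the other 14 H4 genes summed to 18.0 ± 1.74, 28.8 ± 2.29 and 13.8 ± 0.722 CPM, which is the order of H2A and H3. The HIST2 genes together stood at 114.1 ± 5.70, 640.5 ± 24.4 and 89.2 ± 4.31 CPM. Most of the vector-labelled sum was HIST2H2AA3 and HIST2H2AA4, which averaged 180.6 and 355.2 CPM there, with HIST2H2BE at 81.05. It is therefore not a rise of the cluster as a whole, and HIST2H2BF and HIST2H4A were called in no contrast. With 2 libraries a group an exact permutation test could not pass 0.05, so the sums carry no p-value. Library totals in place of TMM raised the ratios to the controls, with no change of direction.

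**Figure D1:**
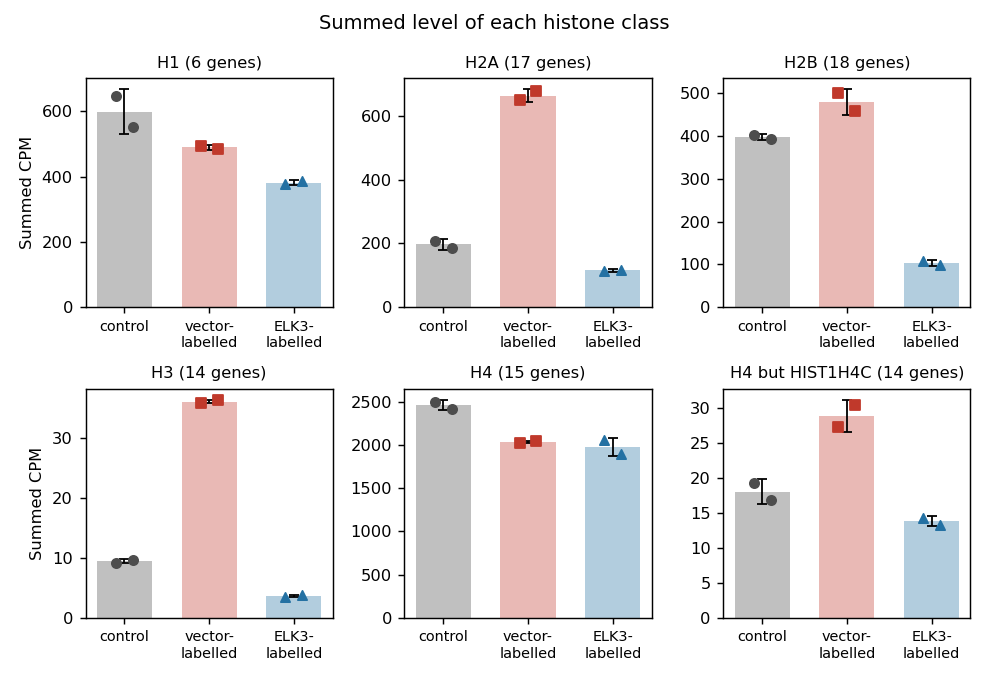
Summed TMM-scaled CPM of each histone class, with bars for the mean of 2 libraries, points for each library and error bars for the SD; the last panel leaves HIST1H4C out of H4. H2A stood at 664.9 CPM in the vector-labelled libraries against 196.7 in the controls and 115.1 in the ELK3-labelled ones, while the sum of H4 moved far less. Without HIST2H2AA3 and HIST2H2AA4, the H2A sums were 129.1, 106.9 and 50.8 CPM in that order.

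In the contrast of vector-labelled libraries with controls, 13 of the 30 tested genes were higher (37.0% of all 15386 genes tested were) and 9 were lower (35.3% of all), by edgeR's quasi-likelihood test at an adjusted p under 0.05. In the contrast of ELK3-labelled with vector-labelled libraries, 2 were higher (30.0% of all) and 18 were lower (29.6% of all). Against the controls, 2 were higher (31.8% of all) and 15 were lower (30.8% of all) in the ELK3-labelled libraries. HIST1H3C, called lower than the controls in both plasmid groups, passed the filter only through the controls. Its place in these counts is therefore partly set by the filter. The shares in the first contrast lie near those of all genes. Falls of at least 2-fold between the plasmid groups were made by 14 of the 30 genes, or 46.7%, against 12.4% of all genes tested. Of these 14, HIST1H1B, HIST1H2BG, HIST1H2BN, HIST1H3D and HIST1H4B passed the filter only through the vector-labelled libraries, so their place in this count is partly set by the filter. HIST2H2AA3 and HIST2H2AA4 are both among the 14, though their coding bases are identical, so a single signal may be counted more than once. The median log2 fold change of the 30 was 0.44, -0.76 and -0.46 in the 3 contrasts, beside 0.05, -0.02 and 0.02 over all genes. Contrasts that share a group are not independent of each other.

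**Figure D2:**
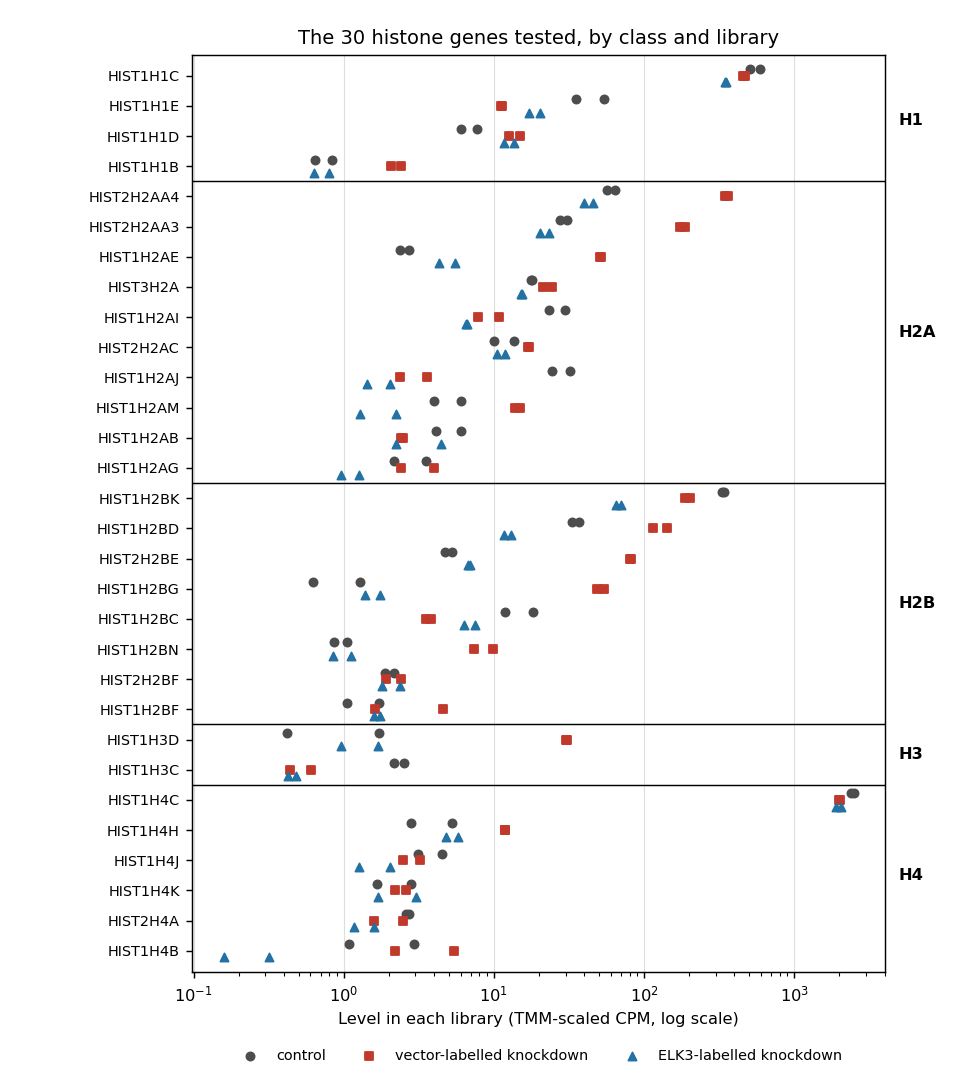
TMM-scaled CPM of the 30 tested histone genes on a log axis, 1 point for each library, with lines between the classes. HIST1H2BG, HIST1H2AE, HIST2H2BE and HIST1H3D stand apart in the vector-labelled libraries, and HIST1H2AJ and HIST1H2BK are highest in the controls.

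Linker histone genes did not move as a group. HIST1H1C, which encodes linker histone H1.2, had 587.2 and 507.9 CPM in the controls, 468.3 and 456.2 in vector-labelled and 344.4 and 353.3 in ELK3-labelled libraries. It fell by 0.24 ± 0.08 (log2 fold change ± SE, adjusted p = 0.00928) from controls to vector-labelled libraries and by a further 0.41 ± 0.08 (adjusted p = 8.49e-05) to ELK3-labelled ones. The first of these calls ended without control replicate 1 (adjusted p = 0.152), with library totals (adjusted p = 0.224) and with a filter of 10 CPM (adjusted p = 0.116). HIST1H1E, the gene of H1.4, stood at 53.74 and 35.27, at 11.31 and 11.21, and at 17.01 and 20.41 CPM in the same order. It fell by 1.98 ± 0.19 from the controls to the vector-labelled libraries (adjusted p = 2.1e-11), followed by a rise of 0.75 ± 0.20 in the ELK3-labelled libraries (adjusted p = 0.00153). HIST1H1D, the gene of H1.3, went the other way, with 6.07 and 7.74 CPM in the controls against 12.63 and 14.81 in the vector-labelled and 13.52 and 11.70 in the ELK3-labelled libraries. It was higher than in the controls in both plasmid groups (log2 fold changes 0.98 and 0.86, adjusted p = 0.000461 and 0.0019). HIST1H1B, the gene of H1.5, had 3 to 14 counts a library, and its calls rest on these. It rose by 1.55 ± 0.63 in the vector-labelled libraries (adjusted p = 0.0277) and lost that call when any library but ELK3-labelled replicate 2 was left out, with no filter (adjusted p = 0.0596) and with DESeq2 (adjusted p = 0.133). HIST1H1A and the testis gene HIST1H1T had 1 and 2 counts in all.

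HIST2H2AA3 and HIST2H2AA4, on chromosome 1 at 149842188 to 149842736 on the minus strand and at 149851061 to 149851624 on the plus strand (GRCh38), share 100% of their coding bases, so reads of one cannot be told from reads of the other there. HIST2H2AA4 had 64.41 and 56.98 CPM in the controls, 346.1 and 364.4 in vector-labelled and 39.59 and 45.50 in ELK3-labelled libraries. HIST2H2AA3 had 30.53 and 27.74, 172.6 and 188.5, and 20.35 and 23.18 CPM. The ratio of the copies stayed between 1.93 and 2.11 in every library. How reads that match both were assigned is not given, so the copies cannot be read as independent results. HIST2H2AA4 rose by 2.55 ± 0.10 over the controls (adjusted p = 1.5e-21) and fell by 3.05 ± 0.10 in the ELK3-labelled libraries (adjusted p = 6.31e-23). Against the controls HIST2H2AA4 fell by 0.50 ± 0.11 in the ELK3-labelled libraries (adjusted p = 0.00017) and HIST2H2AA3 fell by 0.41 ± 0.14 (adjusted p = 0.00927), the latter not without control replicate 1 (adjusted p = 0.0946) or ELK3-labelled replicate 1 (adjusted p = 0.0755). HIST1H2AE had 2.72 and 2.37 CPM in the controls, 50.68 and 52.03 in vector-labelled and 4.29 and 5.53 in ELK3-labelled libraries. Its rise of 4.32 ± 0.23 (adjusted p = 6.09e-18) put it above all other libraries, and it fell by 3.35 ± 0.18 between the plasmid groups (adjusted p = 5.58e-17). Its excess in ELK3-labelled libraries over controls (0.97 ± 0.32, adjusted p = 0.0095) did not pass without control replicate 2 or without ELK3-labelled replicate 2.

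Other H2A genes were highest in the controls. HIST1H2AJ had 32.21 and 24.51 CPM there, 2.35 and 3.60 in the vector-labelled and 1.43 and 2.02 in the ELK3-labelled libraries. Against the controls it fell by 3.29 ± 0.26 (adjusted p = 3.83e-13) in the first of these groups and fell by 3.98 ± 0.27 (adjusted p = 8.68e-15) in the second. HIST1H2AI had 29.90 and 23.44, 10.87 and 7.80, and 6.52 and 6.59 CPM. It fell by 1.49 ± 0.20 from controls to vector-labelled libraries (adjusted p = 6.5e-08). In the ELK3-labelled libraries it fell by a further 0.53 ± 0.23 (adjusted p = 0.0493), which lost the call in 9 of the alternatives, among them the fits without vector-labelled replicate 1 (adjusted p = 0.544) or either ELK3-labelled library (adjusted p = 0.114 and 0.141). HIST1H2AB had 6.07 and 4.09, 2.50 and 2.40, and 4.45 and 2.23 CPM, and it fell by 1.04 ± 0.41 in the vector-labelled libraries (adjusted p = 0.0224), which ended without control replicate 1 or either vector-labelled library, and with DESeq2 (adjusted p = 0.0957).

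HIST1H2AM had 3.97 and 6.02 CPM in the controls, 14.98 and 13.81 in vector-labelled and 2.23 and 1.28 in ELK3-labelled libraries, a rise of 1.53 ± 0.27 (adjusted p = 7.74e-06). It then fell by 3.10 ± 0.30 (adjusted p = 1.19e-10). Its locus overlaps HIST1H3J on the same strand. HIST2H2AC had 10.04 and 13.55, 16.75 and 17.21, and 11.77 and 10.42 CPM. Its rise of 0.53 ± 0.21 (adjusted p = 0.0222) ended without control replicate 1 or either vector-labelled library, and with DESeq2 (adjusted p = 0.107). It fell by 0.62 ± 0.19 between the plasmid groups (adjusted p = 0.0055), which ended without ELK3-labelled replicate 2 and with DESeq2 (adjusted p = 0.0579). HIST3H2A had 17.98 and 17.63, 24.24 and 21.21, and 15.27 and 15.20 CPM, and fell by 0.59 ± 0.16 between the plasmid groups (adjusted p = 0.00243), and not when vector-labelled replicate 1 was left out. HIST1H2AG had 8 to 27 counts a library and fell by 1.57 ± 0.48 between the plasmid groups (adjusted p = 0.00503), which failed when either vector-labelled replicate 1 or ELK3-labelled replicate 2 was dropped, and with DESeq2 (adjusted p = 0.0525). The 7 untested H2A genes had at most 20 counts in a library.

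Of the H2B genes, HIST1H2BG, on chromosome 6 at 26215159 to 26216692 on the minus strand (GRCh38), had 3 and 6 control counts, 368 and 242 in the vector-labelled and 11 and 13 in the ELK3-labelled libraries. That is 0.627 and 1.29, 54.06 and 48.42, and 1.75 and 1.38 CPM, with the vector-labelled libraries far above all others. The rise was 5.72 ± 0.28 (adjusted p = 8.73e-19), and the difference between ELK3-labelled libraries and controls did not pass (0.67 ± 0.54, adjusted p = 0.28). HIST2H2BE had 5.23 and 4.73, 80.06 and 82.04, and 6.68 and 6.91 CPM, with a rise of 4.02 ± 0.18 (adjusted p = 4.72e-20). HIST1H2BD had 33.25 and 36.77, 142.8 and 114.5, and 13.04 and 11.70 CPM. It rose by 1.88 ± 0.12 (adjusted p = 1.18e-15) and ended below the controls in the ELK3-labelled libraries, where it fell by 1.51 ± 0.16 against them (adjusted p = 2.57e-10). HIST1H2BN had 1.05 and 0.860, 7.35 and 9.81, and 1.11 and 0.851 CPM, a rise of 3.12 ± 0.44 (adjusted p = 1.42e-07). Its locus overlaps HIST1H2AL on the same strand and HIST1H2AK on the other. The annotated models of all of these H2B genes have long ends. So do those of HIST1H2BC, HIST1H2BF and HIST2H2BF, none of which was called higher in the vector-labelled libraries than in the controls. HIST1H2BG, HIST2H2BE and HIST1H2BN were all lower again in the ELK3-labelled libraries, with adjusted p between 1.3e-19 and 2.26e-08.

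HIST1H2BK, the H2B gene with most counts, did not follow them. It had 339.2 and 328.1 CPM in the controls, 203.7 and 186.1 in vector-labelled and 70.13 and 65.49 in ELK3-labelled libraries. It fell by 0.77 ± 0.09 (adjusted p = 7.76e-10) and then fell by 1.53 ± 0.09 (adjusted p = 1.18e-15). HIST1H2BC had 18.19 and 11.83, 3.53 and 3.80, and 7.47 and 6.27 CPM. It fell by 2.04 ± 0.28 (adjusted p = 7.99e-08) and then rose by 0.89 ± 0.30 (adjusted p = 0.0104). The rise ended without vector-labelled replicate 1 (adjusted p = 0.0722) or ELK3-labelled replicate 1 (adjusted p = 0.0538), and with DESeq2 (adjusted p = 0.0527). HIST1H2BC and HIST1H2BG, which share 90.3% of their coding bases, thus moved in opposite directions in the vector-labelled libraries. HIST1H2BF and HIST2H2BF were tested and passed in no contrast. HIST1H2BF rested on vector-labelled replicate 2, with 23 counts there against 5 to 15 in the other 5 libraries, and without vector-labelled replicate 1 it passed as higher than in the controls (adjusted p = 0.0121). The other 10 H2B genes had at most 12 counts in a library. One of them, HIST3H2BB, had 21 counts in the vector-labelled libraries against 1 in the controls, a ratio of 16.8 (exact 95% counting interval 2.70 to 693.9).

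The promoters of H2A and H2B genes are known for an octamer bound by OCT1 (POU2F1), and the windows below are shown because these H2B genes moved in different ways. They are the 150 bases before the start in RefSeq (GRCh38.p14), 5′ to 3′ on the gene's strand, with the octamer ATTTGCAT in capitals.
HIST1H2BG, chr6:26216689-26216838, minus strand: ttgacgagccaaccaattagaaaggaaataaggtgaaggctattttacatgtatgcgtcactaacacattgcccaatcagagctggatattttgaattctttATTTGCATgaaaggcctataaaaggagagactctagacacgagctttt
HIST2H2BE, chr1:149886683-149886832, minus strand: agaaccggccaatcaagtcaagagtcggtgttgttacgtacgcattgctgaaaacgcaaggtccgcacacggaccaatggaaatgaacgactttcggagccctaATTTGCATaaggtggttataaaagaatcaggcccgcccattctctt
HIST1H2BK, chr6:27146859-27147008, minus strand: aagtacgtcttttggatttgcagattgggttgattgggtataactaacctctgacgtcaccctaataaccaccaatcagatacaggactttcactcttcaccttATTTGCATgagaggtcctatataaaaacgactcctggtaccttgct
HIST1H2BD, chr6:26157971-26158120, plus strand: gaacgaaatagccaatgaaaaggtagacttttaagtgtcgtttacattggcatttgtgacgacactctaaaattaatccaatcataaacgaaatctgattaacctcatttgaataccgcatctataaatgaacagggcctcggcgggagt
In HIST1H2BG the octamer began at -48 from the start, and in HIST2H2BE and HIST1H2BK at -46. HIST2H2BE rose and HIST1H2BK fell with the same octamer at the same place, and HIST1H2BD rose without an exact match. RefSeq windows were matched for 65 of the 70 genes. Over 300 bases (250 before and 50 after the start), on both strands, the octamer ATTTGCAT occurred in 14 of 18 H2B, 11 of 16 H2A and 1 of 12 H3 windows and in no H1 or H4 window, against 1.8% of 27305 promoters. The CCAAT box stood in all windows of H1, H2A, H2B and H3 and in 3 of 13 of H4, against 35.7% of all promoters. Of 12 tested H2A and H2B genes with the octamer, 5 were higher and 4 lower in the vector-labelled libraries than in the controls, and of 6 without it 4 were higher and 1 lower. Over all genes tested 37.0% were higher and 35.3% lower. The copies HIST2H2AA3 and HIST2H2AA4 are both among the higher genes without the octamer. The difference between these groups of genes was not tested. A match is a description of letters and no evidence of binding.

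Many H2A and H2B genes lie head to head and share a promoter. GENCODE models held 11 such pairs, with 219 to 331 bases between their starts. HIST1H2BG and HIST1H2AE, 283 bases apart, share 268 bases of their promoter windows and were both high in the vector-labelled libraries, at 51.24 and 51.35 CPM on average against 0.959 and 2.54 in the controls. The only other pair with both partners tested is HIST2H2BE and HIST2H2AC, 323 bases apart, which rose by 4.02 and 0.53 on the log2 scale, the latter not with DESeq2. In the other 9 pairs at least 1 partner was too low to test. HIST1H2BK averaged 333.7 CPM in the controls and 194.9 in vector-labelled libraries, and its partner HIST1H2AH 1.90 and 0.914. HIST1H2AJ averaged 28.36 and 2.98 CPM in these groups, while its partner HIST1H2BM had 2 and 1 counts there, too few to show a change. HIST1H2BC averaged 15.01 and 3.66 CPM, and its partner HIST1H2AC 2.88 and 1.31, with libraries that overlapped between the groups.

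**Figure D3:**
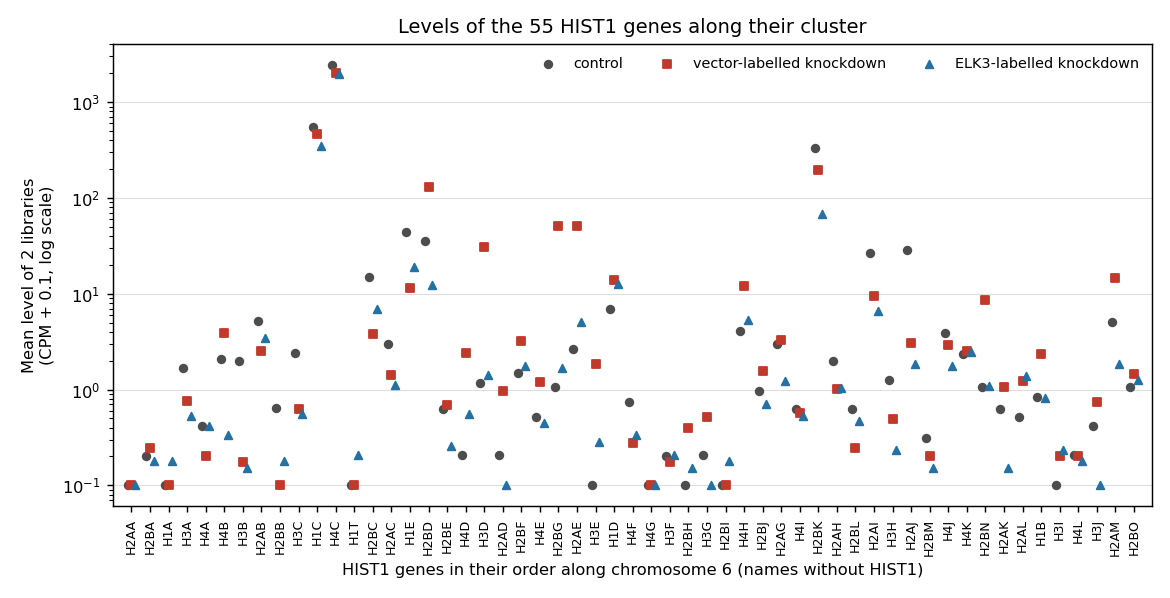
Mean CPM of 2 libraries plus 0.1, on a log axis, for the 55 HIST1 genes in their order along chromosome 6, evenly spaced. Of genes high in the vector-labelled libraries, HIST1H3D stands between HIST1H4D and HIST1H2AD, which have few counts in any group. HIST1H2BG and HIST1H2AE lie side by side, and HIST1H2BD follows HIST1H1E, which averaged 44.5 CPM in the controls.

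For H3, only HIST1H3D and HIST1H3C passed the filter. HIST1H3D had 2 and 8 control counts, 206 and 154 in the vector-labelled and 6 and 16 in the ELK3-labelled libraries, or 0.418 and 1.72, 30.26 and 30.82, and 0.954 and 1.70 CPM. It rose by 4.82 ± 0.33 (adjusted p = 6.31e-15) and fell by 4.43 ± 0.27 (adjusted p = 1.99e-15), and made up nearly all of the H3 sum in the vector-labelled libraries. In GENCODE 29 a longer locus covers both HIST1H3D and HIST1H2AD on the same strand, so the gene its reads came from is uncertain. The 13 other H3 genes together went down, from 8.37 ± 0.585 CPM in the controls to 5.49 ± 0.127 and 2.28 ± 0.371. HIST1H3C had 12 and 10 counts in the controls and 3 or 4 in each of the other libraries. It passed the filter only through the controls, so its fall is partly set by the filter. It fell by 2.15 ± 0.67 in the vector-labelled libraries (adjusted p = 0.00446), a call that ended on leaving out control replicate 1 or vector-labelled replicate 1. HIST1H3B, too low to test, had 18 counts in the controls and 1 in each plasmid group, a ratio of 22.5 (exact 95% counting interval 3.56 to 938.6) to the vector-labelled group. HIST1H3E had 20 counts in the vector-labelled libraries and 0 in the controls, at least 5.33-fold higher against a floor of 3 counts over the group. The identical copies HIST2H3A and HIST2H3C had 5 and 11 counts over all libraries.

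For H4, almost all counts came from HIST1H4C, on chromosome 6 at 26103876 to 26104310 on the plus strand (GRCh38). It had 2484 and 2402 CPM in the controls, 1995 and 2016 in vector-labelled and 2040 and 1885 in ELK3-labelled libraries. Against the controls it fell by 0.29 ± 0.08 (adjusted p = 0.00143) in the vector-labelled and fell by 0.32 ± 0.08 (adjusted p = 0.000632) in the ELK3-labelled libraries, and no difference passed between those (-0.03 ± 0.08, adjusted p = 0.747). With library totals both falls lost the call (adjusted p = 0.0691 and 0.0705). HIST1H4H had 5.23 and 2.80, 11.90 and 11.81, and 5.73 and 4.78 CPM, the same order as HIST2H2BE. It rose by 1.55 ± 0.29 (adjusted p = 1.63e-05) and fell by 1.19 ± 0.25 (adjusted p = 0.000125). HIST1H4B had 14 and 5 control counts, 15 and 27 in the vector-labelled and 1 and 3 in the ELK3-labelled libraries, and fell by 3.73 ± 0.68 between the plasmid groups (adjusted p = 1.72e-05). Against the controls it fell by 2.89 ± 0.80 (adjusted p = 0.00213), which ended without control replicate 1. HIST1H4J and HIST1H4K share 100% of their coding bases, and the ratio of their counts ran from 0.421 to 1.88. HIST1H4J was lower in the ELK3-labelled libraries than in the controls (fell by 1.15 ± 0.43, adjusted p = 0.0208), a call that ended without control replicate 2 or ELK3-labelled replicate 1 and with DESeq2 (adjusted p = 0.0959), and HIST1H4K passed in no contrast. HIST2H4A, with 71 counts over all libraries against 41 for its copy HIST2H4B, passed in none either. Each of them lies opposite an H3 gene, and counting by strand is not stated.

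**Figure D4:**
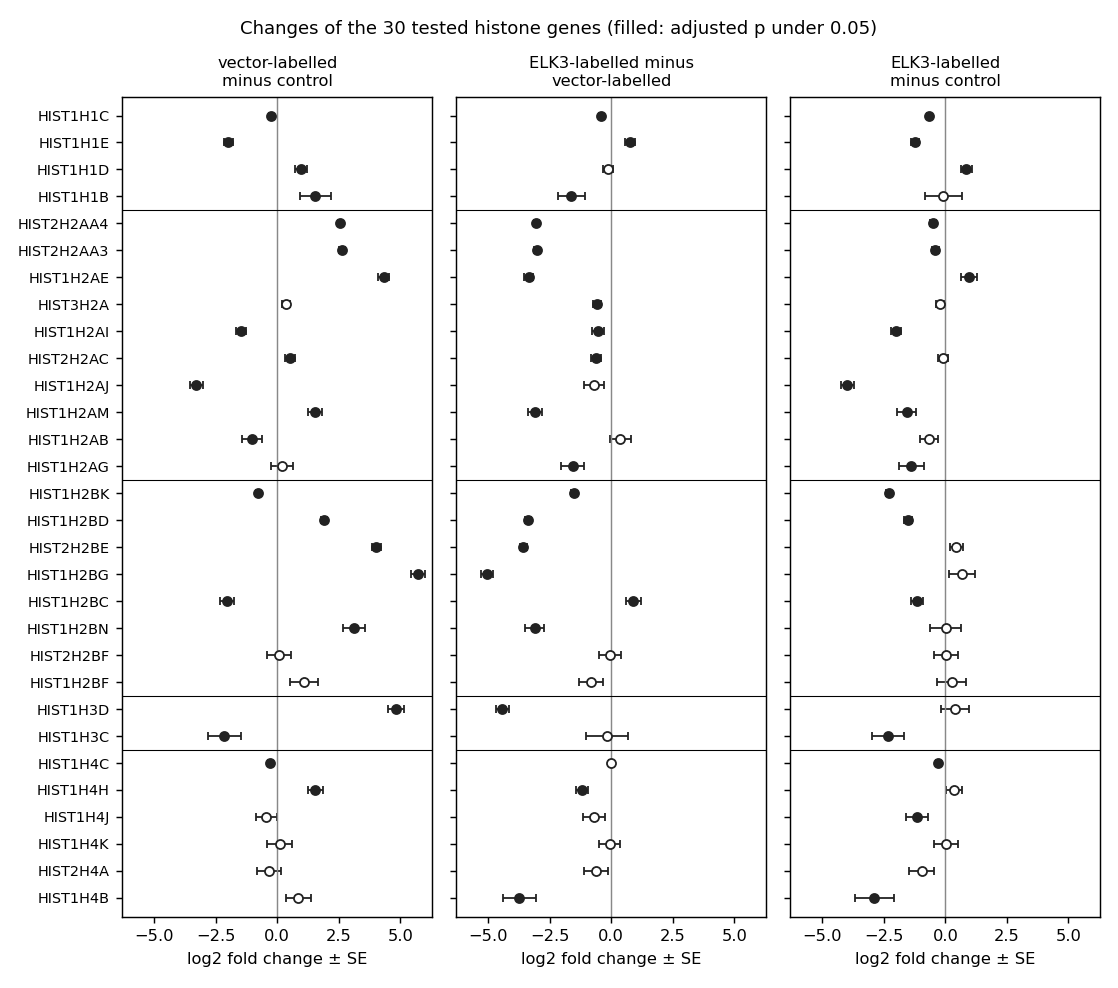
Log2 fold changes ± SE of the 30 tested histone genes in the 3 contrasts, by class in the order H1, H2A, H2B, H3 and H4, with filled points for an adjusted p under 0.05. HIST1H2BG is farthest right in the first panel (5.72) and farthest left in the second (-5.05), and HIST1H2AJ is farthest left in the third (-3.98).

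Read across the contrasts, 12 of the 30 tested genes were called higher in vector-labelled libraries than in controls and lower again in ELK3-labelled libraries, or 40.0% against 21.1% of all genes tested. They are HIST1H1B, HIST1H2AE, HIST1H2AM, HIST2H2AA3, HIST2H2AA4, HIST2H2AC, HIST1H2BD, HIST1H2BG, HIST1H2BN, HIST2H2BE, HIST1H3D and HIST1H4H. Among them, HIST2H2AA3 and HIST2H2AA4 are counted separately, though reads of their coding bases cannot be told apart. Both contrasts contain the vector-labelled libraries, and 4 of these genes passed the filter only through them. HIST1H1E and HIST1H2BC did the reverse. HIST1H1C, HIST1H2AI and HIST1H2BK were lower at each step. Among the genes too low to test, 7 of 38 with a count had both vector-labelled libraries above the other 4, or 18.4% against 23.2% of all untested genes with a count. These were HIST1H2BJ, HIST3H2BB, HIST1H3E, HIST1H3G, HIST1H4D, HIST1H4E and HIST4H4.

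By the kind of annotated end, the calls are given beside those of all genes tested, of which 37.0% were higher and 35.3% lower in vector-labelled libraries than in controls. Of 11 tested genes with a long end, 5 were higher and 1 lower in the vector-labelled libraries than in the controls, and their class summed to 95.8 ± 1.41, 329.9 ± 22.3 and 60.1 ± 3.44 CPM in the 3 groups. Of 6 tested genes with a short end and the stem-loop, 3 were higher and 1 lower, and the sums were 125.4 ± 12.2, 603.4 ± 25.4 and 78.0 ± 7.82 CPM, most of it HIST2H2AA3 and HIST2H2AA4. Of 11 tested genes whose model stops at the stop codon, 5 were higher and 5 lower. The 2 tested genes with a short end and no match to the stem-loop, HIST1H1E and HIST1H4C, were both lower. These models are of another build than the counts, and the ends actually read were not analysed here.

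For the lists that follow, the shares of all genes tested were 37.0% higher and 35.3% lower in the first contrast, 30.0% and 29.6% between the plasmid groups, and 31.8% and 30.8% between ELK3-labelled libraries and controls. One list holds the machinery that ends histone messenger RNA. Of 21 genes of this list, all tested, 7 were higher and 10 lower in vector-labelled libraries than in controls, and 8 were higher and 6 lower in ELK3-labelled than in vector-labelled libraries. Between ELK3-labelled libraries and controls 4 were higher and 5 lower. The list's median log2 fold changes were -0.18, 0.14 and -0.06 in the 3 contrasts, and those of all genes tested were 0.05, -0.02 and 0.02 for this and the lists that follow. SLBP, the stem-loop binding protein, had 98.71 and 108.2 CPM in the controls, 95.78 and 85.84 in vector-labelled and 82.37 and 77.72 in ELK3-labelled libraries. It passed only between ELK3-labelled libraries and controls (fell by 0.37, adjusted p = 0.00136), and not there with library totals (adjusted p = 0.0618). CPSF3, the endonuclease that cuts histone and other pre-messenger RNAs, had 52.28 and 57.84, 14.40 and 15.81, and 48.66 and 54.33 CPM. CSTF2, a cleavage factor, had 51.44 and 54.40, 13.96 and 10.41, and 58.99 and 61.35 CPM. Both were lowest in the vector-labelled libraries. CPSF3 fell by 1.87 ± 0.14 (adjusted p = 1.21e-13) and CSTF2 fell by 2.09 ± 0.15 (adjusted p = 2.23e-14). CPSF2 fell by 1.65 ± 0.11 there (adjusted p = 2.62e-15), and NCBP1, a cap-binding gene, fell by 1.46 ± 0.13 (adjusted p = 2.24e-12). LSM11 and ZNF473, which belong to the U7 particle and its partners, rose by 1.27 ± 0.16 (adjusted p = 1.02e-08) and 1.30 ± 0.15 (adjusted p = 2.38e-09).

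Another list holds regulators of histone transcription. Of its 15 genes, 5 were higher and 8 lower in vector-labelled libraries than in controls, and 6 were higher and 4 lower in the ELK3-labelled than in the vector-labelled ones. Against the controls 5 were higher and 7 lower in the ELK3-labelled libraries, and the medians were -0.44, 0.15 and -0.09. NPAT, the cyclin E substrate that switches on histone clusters in S phase, had 91.39 and 84.08, 30.11 and 25.21, and 61.70 and 66.34 CPM, so it was lowest where the H2A and H2B sums were highest (fell by 1.65 ± 0.12, adjusted p = 3.05e-14). NFYC, a subunit of the CCAAT-binding factor, had 82.60 and 91.61, 393.8 and 350.2, and 133.6 and 129.8 CPM, with a rise of 2.10 ± 0.09 (adjusted p = 9.17e-20). POU2F1, the octamer-binding factor, rose by 0.72 ± 0.10 (adjusted p = 9.27e-08) in the vector-labelled libraries.

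Histone chaperones, which carry histones to DNA, numbered 23. Of these, 8 were higher and 8 lower in vector-labelled libraries than in controls, and 10 were higher and 3 lower in ELK3-labelled than in vector-labelled libraries. In ELK3-labelled libraries 9 were higher and 7 lower than in the controls, and the medians were 0.01, 0.12 and 0.13. SUPT16H, a subunit of FACT, had 273.5 and 329.4, 90.19 and 88.44, and 295.1 and 322.9 CPM. DAXX, a chaperone of H3.3, fell by 2.41 ± 0.13 (adjusted p = 1.1e-17) in the vector-labelled libraries and rose by 1.62 ± 0.13 (adjusted p = 1.53e-12) in the ELK3-labelled ones. NASP, which binds H1 and H3, was higher in each group than in the one before (log2 fold changes 0.63 and 0.54, adjusted p = 1.7e-07 and 2.49e-06).

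The variant histone genes on the list lie outside the clusters. Most give polyadenylated messenger RNA, though H2AFX is known to make a stem-loop form as well. Of 13 tested, 4 were higher and 5 lower in vector-labelled libraries than in controls, 3 were higher and 4 lower in ELK3-labelled than in vector-labelled libraries, and 3 were higher and 7 lower in ELK3-labelled libraries than in controls, with medians of 0.01, -0.02 and -0.18. H2AFZ, the gene of H2A.Z, did not pass in any contrast, at 965.1 and 952.4, 1032 and 1041, and 1018 and 1032 CPM. H3F3B, a gene of H3.3, had 1046 and 1079, 1596 and 1548, and 936.3 and 936.1 CPM, and rose by 0.57 ± 0.08 in the vector-labelled libraries (adjusted p = 6.74e-08). H1F0, the H1 variant of resting cells, had 111.7 and 145.4, 21.45 and 18.21, and 37.21 and 35.72 CPM and fell by 2.68 ± 0.13 (adjusted p = 1.09e-18). CENPA, the H3 variant of centromeres, was lower in ELK3-labelled than in vector-labelled libraries (fell by 1.12 ± 0.18, adjusted p = 2.38e-06).

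Cell-cycle genes are given because histone levels follow S phase. Of 34 S-phase genes, 15 were higher and 9 lower in vector-labelled libraries than in controls, and 11 were higher and 7 lower in ELK3-labelled than in vector-labelled libraries. In ELK3-labelled libraries 17 were higher and 8 lower than in the controls, and the medians were 0.20, 0.10 and 0.27. The S-phase list summed to 4041 to 4326 CPM in the controls, 4783 to 4838 in the vector-labelled and 4927 to 4965 in the ELK3-labelled libraries. It was thus highest in the ELK3-labelled libraries, where the H2B sums were lowest. CDC6, the loader of the replicative helicase, had 84.28 and 82.79, 310.4 and 316.8, and 113.4 and 121.8 CPM, while MCM3, part of that helicase, had 247.6 and 308.6, 104.6 and 89.45, and 216.1 and 213.3 CPM. Of 25 genes of G2 and mitosis, 12 were higher and 11 lower in vector-labelled libraries than in controls, and 3 were higher and 20 lower in ELK3-labelled than in vector-labelled libraries. In ELK3-labelled libraries 4 were higher and 16 lower than in the controls, and the medians were 0.00, -0.62 and -0.59. Their summed level was 8324 to 8475 CPM in the controls, 10810 to 11210 in the vector-labelled and 5779 to 6032 in the ELK3-labelled libraries, the order of the H2B sums. Whether a different spread of cells over the cycle had a part in the histone values was not tested.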

How the data were processed

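RNA of 6 libraries was sequenced, 2 for each of 3 groups. The deposited values are raw counts of reads per gene symbol, which the authors made with alignment to hg19, and the submitters' processing notes name Bowtie2 and edgeR without versions. The counting tool, its annotation, its use of strand and its treatment of reads with several matches are not given in the sources used here. Counts on several lines of a symbol were summed (286 symbols).

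Genes were kept by filterByExpr (15386 genes, 30 histone genes), scaled by TMM and tested with edgeR 4.0.16 in R 4.3.3, by a robust quasi-likelihood fit of 1 mean per group over all 6 libraries (3 residual degrees of freedom, common biological coefficient of variation 0.065), two-sided, with Benjamini-Hochberg adjustment over all genes tested and a threshold of 0.05. DESeq2 1.42.0 was an alternative, and the fit was tested on simulated data. Intervals and floors cover counting error only, since molecular identifiers are not mentioned. Library totals in place of TMM moved the median log2 fold change of all genes from 0.05 to 0.18 for vector-labelled libraries against controls and from 0.02 to 0.18 for ELK3-labelled libraries against controls.

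The histone genes and the gene lists were chosen with earlier results of these data known. By the rule for named genes, any histone gene could be named. Values in every library are given for those called in at least 1 contrast with 5 CPM or more in their highest group. The rule also asked for them for identical copies, but copies other than HIST2H2AA3 and HIST2H2AA4 are given only by totals or ratios. List genes were named from the 4 with the smallest p per contrast. Named outside that rule were H2AFZ and factors known to act on histone genes or their messenger RNA (SLBP, LSM11, ZNF473 and POU2F1). Gene models and stem-loops came from GENCODE 29 (GRCh38) and promoters from RefSeq (GRCh38.p14), while the count files give no coordinates. Alternatives were other scalings, other filters, DESeq2, a replicate block, each contrast's 4 libraries alone, leaving out each library, leaving out symbols on several lines and summing identical copies.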

Additional observations from a re-analysis of the deposited data

How the results depend on the processing

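No direction that passed the test reversed in any alternative run. The replicate numbers paired no samples (correlations of deviations -0.056, 0.033 and -0.001), and a fit with the replicate number as a block gave 13 higher and 9 lower histone genes for vector-labelled libraries against controls, 2 and 17 for ELK3-labelled against vector-labelled ones, and 2 and 15 for ELK3-labelled against controls. Where a library was left out, its group's other library was assumed to vary like the other groups. The counts then ran from 13 to 15 higher and 7 to 10 lower in the first contrast, from 1 to 3 higher and 16 to 21 lower in the second, and from 1 to 2 higher and 13 to 17 lower in the third. DESeq2 called 1 histone gene higher in ELK3-labelled than in vector-labelled libraries. It lost 10 calls of single histone genes, those of HIST1H1B in the first contrast and the second (adjusted p = 0.133 and 0.116), HIST2H2AC likewise (0.107 and 0.0579), HIST1H2AB in the first (0.0957), HIST1H2AG in the second and the third (0.0525 and 0.0882), HIST1H2AI and HIST1H2BC in the second (0.16 and 0.0527) and HIST1H4J in the third (0.0959). With library totals the ratio of class sums to the controls was 0.710 for H1 in the ELK3-labelled libraries, and in the vector-labelled and ELK3-labelled libraries 3.70 and 0.654 for H2A, 1.32 and 0.290 for H2B, 4.19 and 0.428 for H3 and 0.906 and 0.898 for H4. Leaving out a library moved the ratios to the controls no further than 0.756 to 0.887 and 0.588 to 0.691 for H1, 3.19 to 3.59 and 0.553 to 0.622 for H2A, 1.15 to 1.26 and 0.248 to 0.270 for H2B, 3.72 to 3.92 and 0.371 to 0.394 for H3, and 0.813 to 0.841 and 0.771 to 0.835 for H4. Of the list counts, variant histones higher in ELK3-labelled than in vector-labelled libraries were 3, and 5 with library totals, with no filter or with the 4 libraries alone, and 2 to 5 with a library left out. Transcription regulators lower in that contrast were 2 to 4 and S-phase genes higher 7 to 12 with a library left out. Against the controls, messenger RNA processing genes higher in ELK3-labelled libraries were 4, but 8 with library totals, 2 with DESeq2 and 2 to 4 with a library left out, and S-phase genes lower were 8, but 4 with library totals. The causes were not tested. Over 1306 checks of single histone genes, 57 lost a call, 8 gained one and 6 moved with no call. Depth limited 40 of the 70 genes, which had at most 20 counts in a library.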

Other observations

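Of the 3 pseudogenes left out, HIST2H2BC, a neighbour of the HIST2 genes, had 4 and 0 control counts, 28 and 23 in the vector-labelled and 7 and 9 in the ELK3-labelled libraries, the order seen for HIST2H2BE. HIST2H2BA had 1 to 5 counts a library, and HIST1H2APS1 had 1 count in all. None of them was tested with the histone genes above.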
